A study of Homo sapiens with 4 samples.

Results

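The FOS and JUN families and 3 further immediate early genes were followed in the human ovarian cancer line SKOV3 given the ginseng saponin 20(S)-Rg3 and in control cells. The 10 genes FOS, FOSB, FOSL1, FOSL2, JUN, JUNB, JUND, EGR1, IER2 and IER3 were chosen by symbol, and each had a row in the deposited table of 40205 genes. The Rg3 group held 2 libraries from cells exposed to 80 µg/mL for 24 h, and the control group held 2 libraries from the same line, with no vehicle named in the labels. All cells grew in serum-containing medium, and each library was made from pooled, ribosome-depleted total RNA, and no label ties a library to a culture of its own. The p-values below therefore rest on the variation among 4 libraries, which could be technical in origin.

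Immediate early genes are transcribed within minutes of a growth factor, serum or stress signal, without new protein synthesis, and their RNAs decay quickly. Their induction runs largely through MAP kinases, which act on SRF with its ternary complex partners and on CREB at the promoters. FOS proteins must pair with a JUN protein through leucine zippers to form AP-1, whereas JUN proteins can also pair with each other, and the dimers bind the TGANTCA element, also called TRE. In many carcinomas the late-lasting members FOSL1 and FOSL2 outlive the short FOS and FOSB pulse.

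Promoter sequence is shown for the genes on which the results turn. FOSB, EGR1 and FOS were high in 1 control library only, and FOSL2 was the member with the clearest difference between the groups. Sequences are from RefSeq, build GRCh38.p14, plus strand, and capitals mark a motif match. They cover the 250 bases before the start of FOS (chr14:75278578-75278827), FOSB (chr19:45467746-45467995) and EGR1 (chr5:138465229-138465478), and 30 bases around the start of FOSL2 (chr2:28392848-28392877).
FOSB: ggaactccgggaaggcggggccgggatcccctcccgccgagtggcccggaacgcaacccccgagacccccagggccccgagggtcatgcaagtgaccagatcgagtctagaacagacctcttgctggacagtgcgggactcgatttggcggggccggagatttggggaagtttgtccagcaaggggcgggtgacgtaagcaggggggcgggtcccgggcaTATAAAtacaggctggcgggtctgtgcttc
EGR1: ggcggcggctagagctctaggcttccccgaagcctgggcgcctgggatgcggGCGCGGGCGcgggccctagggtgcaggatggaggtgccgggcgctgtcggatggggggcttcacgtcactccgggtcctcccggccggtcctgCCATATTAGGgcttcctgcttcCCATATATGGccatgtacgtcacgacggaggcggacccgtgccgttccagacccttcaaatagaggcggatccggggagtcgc
FOS: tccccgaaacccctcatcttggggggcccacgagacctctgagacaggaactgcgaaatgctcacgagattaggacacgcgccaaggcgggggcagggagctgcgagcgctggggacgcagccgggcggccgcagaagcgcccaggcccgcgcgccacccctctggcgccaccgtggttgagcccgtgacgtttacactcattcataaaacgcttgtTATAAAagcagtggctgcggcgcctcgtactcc
FOSL2: tcgtgccattgtagTGACTCAtctcgggca
The capitals are TATAAA in FOSB and FOS, GCGNGGGCG (the EGR site) followed by 2 CArG boxes in EGR1, and TGACTCA in FOSL2. The CArG box is the element bound by SRF.

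A promoter window of 300 bases, from 250 before the start to 50 after it, was held for 8 of the 10 genes, all except FOSL1 and IER3. Both strands were searched, and no matches overlapped. TATAAA was in 3 of the 8 windows (FOS, FOSB and JUNB), against 11.5% of 35116 windows over all genes. The CArG box was in the EGR1 window only, against 1.29% of all windows. TGANTCA was in the FOSL2 window (7.71% of all), the CRE TGACGTCA in the JUND window (1.85%) and GCGNGGGCG in the EGR1 window (9.43%). The JUN and IER2 windows held no match to these patterns. Variant sites, and sites outside the windows, were not searched for. These matches describe the sequence and say nothing of binding in these cells.

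Libraries held from 24482846 to 30132517 counts, and the 10 genes together took 0.00974% to 0.0152% of them. The keratins KRT7, KRT8 and KRT18 and the amplified receptor gene ERBB2 were present in every library, with ERBB2 between 45.2 and 53.5 CPM (CPM, the level of a gene per 1000000 counts after TMM scaling). EPCAM had no count in any library, and KRT19 and WT1 had at most 3 counts. Control 2 stood apart in genes absent from the other libraries. It alone held at least 10 counts of 25 genes with none elsewhere, while Rg3 1 had 2 such genes and Rg3 2 and control 1 had 0. Among the 25 were STAR, a cholesterol carrier of steroid-making cells, with 145 counts, and the haemoglobin gene HBB with 79. Of 17 markers of fibroblasts, leukocytes and endothelium, 5 were counted in control 2 only. They were COL1A2, COL3A1, LUM, PTPRC and LYZ, each with 2 to 4 counts, and KDR, CLDN5 and CD3E were at 0 in all libraries. The summed levels were carried by PDGFRB, CD68 and CDH5, which were counted in all 4 libraries. Fibroblast markers summed to 39.1 and 29.5 CPM with Rg3 and to 30.0 and 33.0 CPM in controls 1 and 2, leukocyte markers to 17.7 and 10.6 against 21.8 and 17.2 CPM, and endothelial markers to 16.9 and 16.5 against 18.8 and 19.8 CPM. Results for the 10 genes that turn on control 2 are given with and without it.

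No member passed the threshold of an adjusted p under 0.05 in edgeR's quasi-likelihood test. In bulk RNA, fewer cells expressing a gene and less of its RNA per cell cannot be told apart. All 10 were among the 16323 genes tested, of which 5 were called (0.0306%), all higher with Rg3 and 0% lower. DESeq2, which called 0.419% of genes, and limma voom, which called 0.0306%, also called 0 members, and 2 members, FOSL2 and FOSB, had an unadjusted edgeR p under 0.05, against 4.73% of all genes. The log2 fold change was below 0 for all 4 FOS genes and for JUN and EGR1, and above 0 for JUNB, JUND, IER2 and IER3. The median over the 10 was −0.25, beside 0.01 over all genes tested. Without control 2 the log2 fold changes of FOS, FOSB and EGR1 were above 0, at 0.16, 1.15 and 0.59. That of JUNB was −0.018, and the other members kept their sign. The signs and the median of the 10 thus depend on control 2. Both Rg3 libraries lay below both controls for FOSL2 and JUN, 2 of 10, against 17% of all genes, and above both controls for 0 of 10, against 15.3%.

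**Figure D1:**
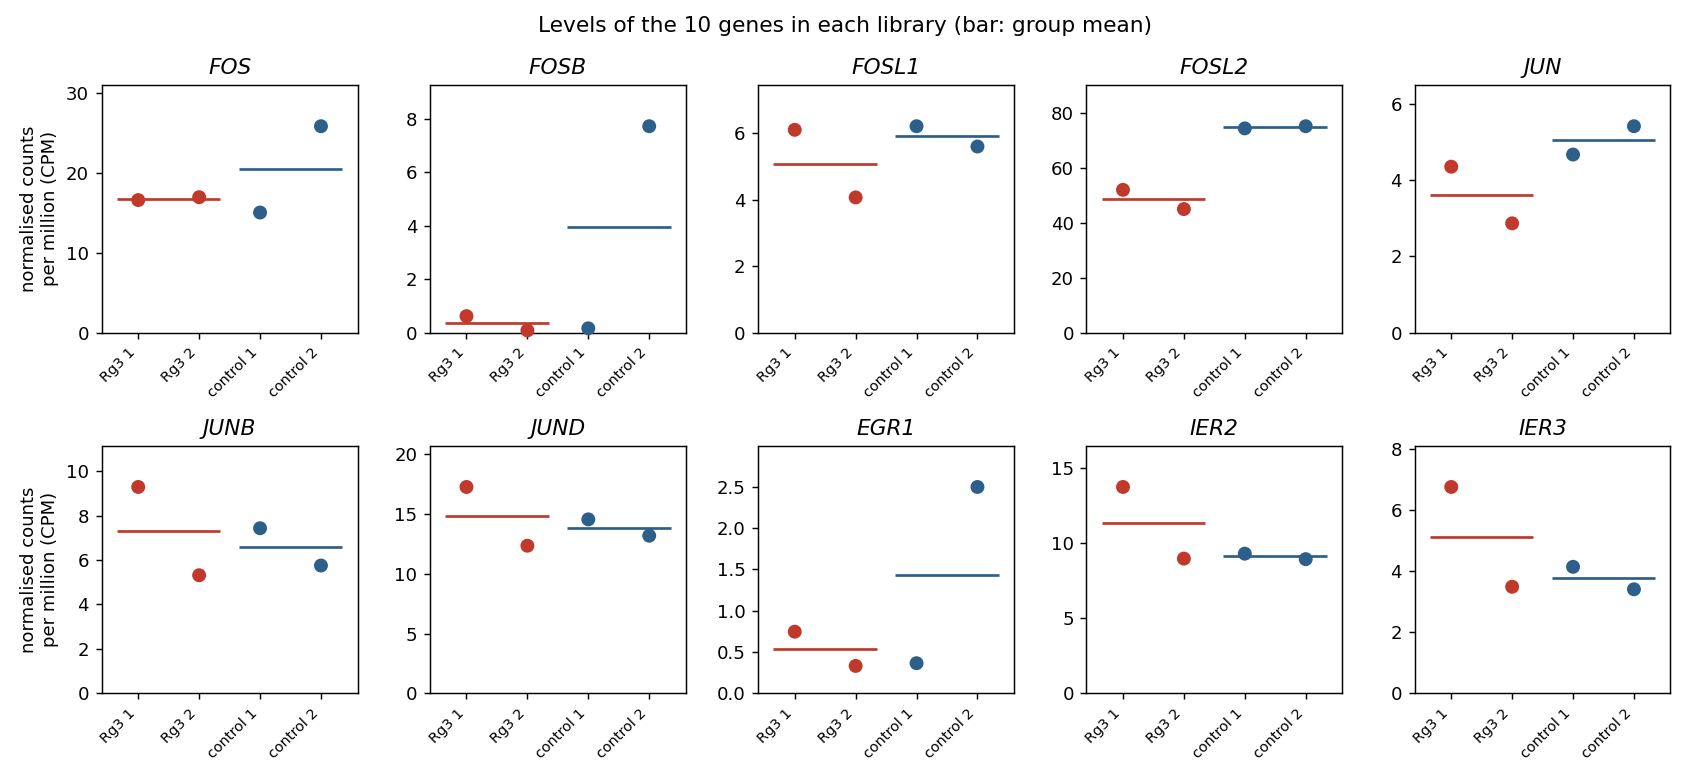
Normalised CPM of each gene (y axis, from 0, a scale of its own per panel) in the 2 Rg3 libraries (red) and the 2 control libraries (blue), with a bar at the group mean. FOSL2 and, by a narrow gap, JUN separate the groups, as 17% of all genes do in this direction. FOSB and EGR1 are high in control 2 alone, and IER2 and IER3 are highest in Rg3 1.

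FOSL2 encodes FRA2, a FOS family protein that outlasts the early pulse. It had 1599 and 1082 counts with Rg3 against 1829 and 1983 in controls, or 51.9 and 44.9 CPM against 74.2 and 75.0 CPM. The controls were nearly equal, and the higher Rg3 library lay well below the lower control. The group means were 48.4 ± 4.94 CPM with Rg3 and 74.6 ± 0.561 CPM in controls (SD, n = 2 each), a fold of 0.649 with a 95% interval of 0.518 to 0.812. On the log2 scale the difference was −0.62 (SE 0.14), with an unadjusted p of 0.00239 and an adjusted p of 0.566 in edgeR over all genes.

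The size of the FOSL2 difference depended little on the libraries used, but its call did. With each library left out in turn the edgeR log2 fold change ran from −0.73 to −0.52. It passed without Rg3 1 (edgeR adjusted p = 0.00323), where 2.69% of all genes were called lower, and without Rg3 2 (edgeR adjusted p = 0.0219), where 0.879% were. Without either control the edgeR adjusted p was above 0.99. It passed in edgeR with no filter on low counts (adjusted p = 0.0378, 0.483% of genes lower) and did not with DESeq2 (adjusted p = 0.153). Over all alternatives the FOSL2 adjusted p ran from 0.00323 to 0.999993. An antisense gene, FOSL2-AS1, overlaps it in RefSeq, and the strand setting of the counting is not given in the sources used here.

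FOSB encodes a FOS paralogue that is among the most transient of the family. It had 19 and 2 counts with Rg3 and 4 and 204 counts in controls 1 and 2. In CPM these were 0.617 (exact Poisson 95% interval 0.371 to 0.963) and 0.0830 (0.0101 to 0.300) with Rg3, against 0.162 (0.0442 to 0.416) in control 1 and 7.72 (6.70 to 8.85) in control 2. The intervals cover counting error only. Control 2 alone was high, at 47.5 times the level of control 1, and control 1 lay between the Rg3 libraries.

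The edgeR log2 fold change of FOSB over all 4 libraries was −3.40 (SE 1.37, unadjusted p = 0.0407, adjusted p = 0.999). Without control 2 it was 1.15, with the opposite sign, and without control 1 it was −4.35. With no low-count filter it was −3.39 (edgeR adjusted p = 2.67e-16), although only 1 of the 4 libraries was high. That fit called 0.483% of genes lower. Across all alternatives the FOSB adjusted p ran from 2.67e-16 to 0.999993. The part of the genes counted in control 2 alone in the FOSB and EGR1 values was not tested.

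FOS, the prototype of the family, had 512 and 409 counts with Rg3 and 371 and 684 counts in controls. Its levels were 16.6 and 17.0 CPM with Rg3, against 15.1 and 25.9 CPM in controls 1 and 2. The Rg3 libraries were almost equal and lay between the controls. The mean was 16.8 ± 0.254 CPM with Rg3 and 20.5 ± 7.65 CPM in controls (SD, n = 2 each), with a log2 fold change of −0.29 (SE 0.25, edgeR adjusted p = 0.999). Without control 2 the log2 fold change was 0.16. There were 3.71 and 0.489 FOSB counts per 100 FOS counts with Rg3, and 1.08 and 29.8 in controls 1 and 2, a ratio that is read across libraries only, since the genes differ in length. FOSB thus stood out in control 2 far more than FOS did.

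FOSL1 encodes FRA1, often the most prominent FOS protein in invasive carcinoma cells. It had 188 and 98 counts with Rg3 and 153 and 148 in controls, or 6.10 and 4.07 CPM against 6.21 and 5.60 CPM. The groups overlapped, and only Rg3 2 was low. The log2 fold change was −0.21 (SE 0.25, edgeR adjusted p = 0.999), and 0.049 without Rg3 2. A pseudogene, FOSL1P1, had 3 to 7 counts per library.

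Among the JUN genes, JUN encodes the strongest transactivator and drives its own promoter through AP-1. It had 134 and 69 counts with Rg3 against 115 and 143 in controls, or 4.35 and 2.86 CPM against 4.67 and 5.41 CPM. Both Rg3 libraries lay below both controls, although Rg3 1 was close to control 1. The log2 fold change was −0.47 (SE 0.27, edgeR adjusted p = 0.999), a fold of 0.720 with a 95% interval of 0.468 to 1.11. Without Rg3 2 it was −0.21, and without Rg3 1 −0.81.

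JUNB and JUND, which restrain JUN in many settings, differed less between groups than between libraries of a group. JUNB was at 9.29 and 5.31 CPM with Rg3 and 7.43 and 5.75 CPM in controls. Its lowest and highest values were both Rg3 libraries, and the log2 fold change was 0.16 (SE 0.30, edgeR adjusted p = 0.999), −0.30 without Rg3 1 and −0.018 without control 2. JUND was at 17.2 and 12.3 CPM with Rg3 and 14.5 and 13.2 CPM in controls. The controls again lay between the Rg3 libraries, and the log2 fold change was 0.10 (SE 0.20, edgeR adjusted p = 0.999), or −0.16 without Rg3 1. JUNB overlaps HOOK2 in RefSeq, which had 114 and 64 counts with Rg3 and 99 and 93 in controls, beside 286 and 128, and 183 and 152, for JUNB.

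EGR1, a zinc finger factor induced through SRF, followed FOSB. It had 23 and 8 counts with Rg3 and 9 and 66 counts in controls 1 and 2. The levels were 0.747 (exact Poisson 95% interval 0.473 to 1.12) and 0.332 (0.143 to 0.654) CPM with Rg3, against 0.365 (0.167 to 0.694) and 2.50 (1.93 to 3.18) CPM in controls 1 and 2. Control 2 was the only high library, at 6.84 times control 1, and the intervals of control 1 and Rg3 2 overlapped almost fully. The log2 fold change was −1.38 (SE 0.81, edgeR adjusted p = 0.999) over all libraries and 0.59 without control 2. Without control 1 it was −2.16 and passed (edgeR adjusted p = 0.0285), a fit in which 0.388% of all genes were called lower. Over the alternatives with a value the EGR1 adjusted p ran from 0.0285 to 0.999993, and DESeq2 gave none.

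IER2 and IER3 are small early-response genes, and IER3 (IEX-1) is linked to survival signalling. IER2 was at 13.7 and 8.97 CPM with Rg3 and 9.30 and 8.93 CPM in controls, from 423 and 216 counts against 229 and 236. Only Rg3 1 was high, and the other libraries were nearly equal. IER3 was at 6.75 and 3.49 CPM with Rg3 and 4.14 and 3.41 CPM in controls, again high in Rg3 1 alone. Their log2 fold changes were 0.32 (SE 0.24) and 0.45 (SE 0.33), each with an edgeR adjusted p of 0.999. Without Rg3 1 they were −0.019 and −0.11, and without Rg3 2 0.59 and 0.84.

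**Figure D2:**
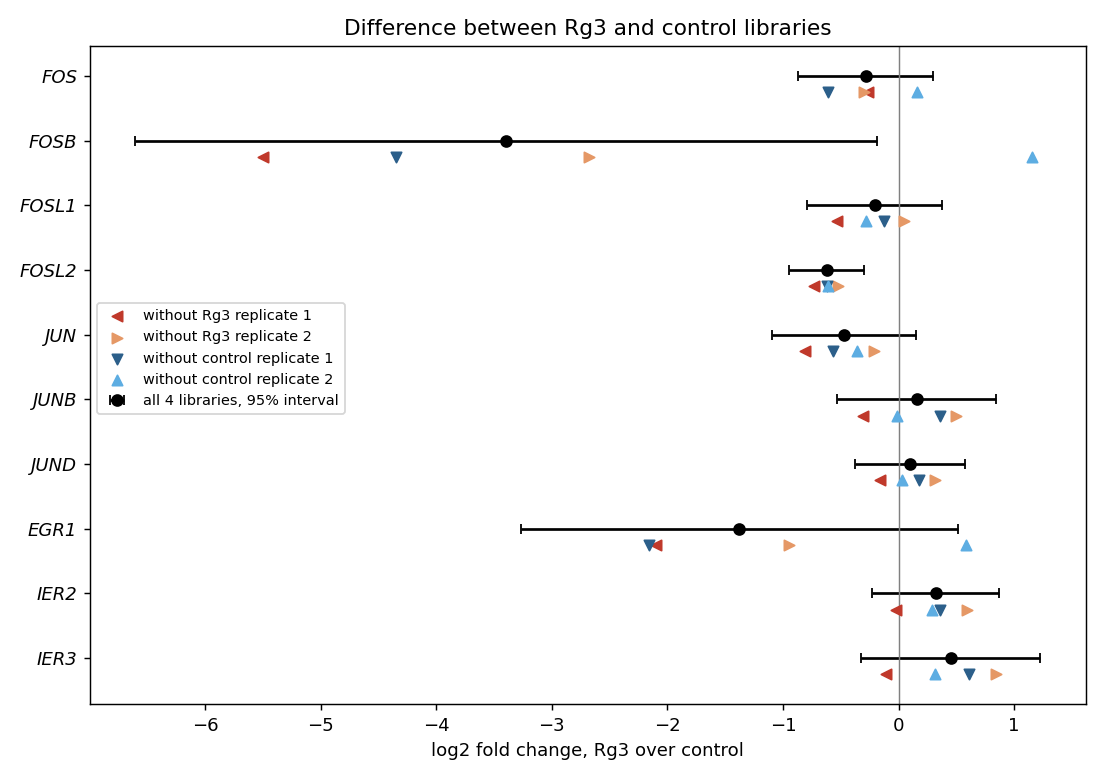
Log2 fold change of each gene, Rg3 over control (x axis), from edgeR with all 4 libraries (black, with its 95% interval) and with 1 library left out (triangles). FOSL2 stays between −0.73 and −0.52 in all 4 reduced fits, and JUN between −0.81 and −0.21. FOS, FOSB, EGR1 and, at −0.018, JUNB move to the other side of 0 without control 2.

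Of the 10 genes, FOSB and EGR1 differed most between the 2 libraries of each group. Between the controls, FOSB and EGR1 were more than 2-fold higher in control 2 (2 of 10, against 1.17% of all genes). By log2 CPM with a prior count of 2, FOSB ranked 3 and EGR1 11 of 16323 genes in this difference, at 5.03 and 2.55. FOS followed at 0.78 (rank 346), while the other 7 lay between −0.36 and 0.21. Between the Rg3 libraries, 9 of 10 genes were higher in Rg3 1, against 48.9% of all genes, with FOS the exception at −0.03. FOSB, at 2.13, and EGR1, at 1.01, were more than 2-fold higher in Rg3 1 (2 of 10, against 3.08% of all genes). They ranked 29 and 484 of 16323 genes in this difference. IER3 followed at 0.94 and JUNB at 0.80.

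**Figure D3:**
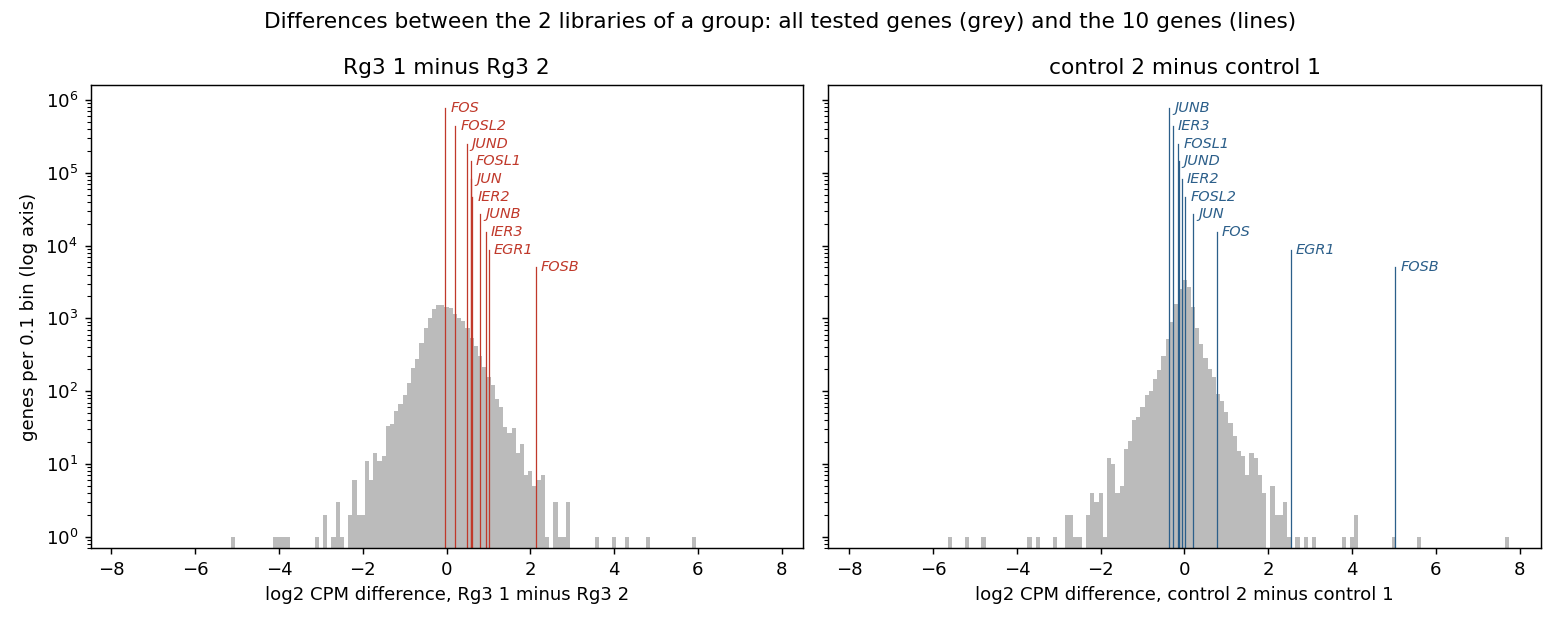
Log2 CPM difference between the 2 libraries of a group (x axis) for all 16323 tested genes (grey, number of genes per bin on a log axis) and for the 10 genes (lines, whose height only separates the labels). In the Rg3 panel 9 of 10 lines lie right of 0, and in the control panel FOSB and EGR1 stand at 5.03 and 2.55.

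The genes around AP-1 were described in 5 lists of 121 genes in all, of which 99 were tested. None was called with edgeR, DESeq2 or limma voom, and 4 of the 99 had an unadjusted edgeR p under 0.05, against 4.73% of all genes. Both Rg3 libraries lay above both controls for 18 of the 99 and below for 11, against 15.3% and 17% of all genes. Rg3 1 was above Rg3 2 for 64 of the 99, against 48.9% of all genes. By list this ran from 14 of 27 upstream kinases and factors to 25 of 33 other immediate early genes. The log2 fold change was above 0 for 16 of the 33 other immediate early genes tested, with a median of −0.05. AP-1 partners had 9 of 12 above 0 (median 0.18), MAP kinase feedback genes 9 of 16 (median 0.03), upstream kinases and factors 20 of 27 (median 0.10) and AP-1 targets 8 of 14 (median 0.06). These medians moved with single libraries. Without Rg3 1 they were 0.0042 for the partners, −0.083 for the feedback genes, 0.014 for the upstream genes and −0.14 for the targets. The median of the other immediate early genes was 0.090 without Rg3 2 and 0.044 without control 2, and −0.11 and −0.10 without Rg3 1 and control 1. The feedback median was 0.17 without Rg3 2, and the target median was 0.16 without control 1 and −0.095 without control 2.

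NR4A3, an orphan nuclear receptor of the early response, had the smallest p of the 99 genes. It was at 15.4 and 9.96 CPM with Rg3 and 7.06 and 7.00 CPM in controls (log2 fold change 0.85, SE 0.24, edgeR adjusted p = 0.874). Both Rg3 libraries were above both controls, as for 15.3% of all genes, with Rg3 1 the higher. NR4A3 was called higher without a low-count filter (edgeR adjusted p = 0.0187), in a fit that called 90 of 25668 genes higher. Its log2 fold change was 0.51 without Rg3 1 and 1.13 without Rg3 2. IER5, an immediate early gene on 2 of the lists, was at 21.1 and 17.2 CPM with Rg3 and 15.4 and 12.3 CPM in controls (log2 fold change 0.47, from 0.31 to 0.65 with 1 library left out). KLF10 and HES1, transcription repressors, had log2 fold changes of −0.30 and −0.50. For each, both Rg3 libraries lay below both controls, as for 17% of all genes. Without control 2, that of KLF10 was −0.20.

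Of the phosphatases that switch MAP kinases off, DUSP5, which acts on ERK, was at 8.12 and 4.77 CPM with Rg3 and 3.86 and 3.71 CPM in controls (log2 fold change 0.78, SE 0.29, edgeR adjusted p = 0.999). DUSP10, which acts on JNK and p38, was at 2.92 and 4.11 CPM with Rg3 and 6.17 and 5.60 CPM in controls (log2 fold change −0.75, SE 0.25, edgeR adjusted p = 0.953). Both genes had groups that did not overlap, DUSP5 higher, as for 15.3% of all genes, and DUSP10 lower, as for 17%. Of the 16 feedback genes tested, 2 lay higher in this way and 1 lower. Without Rg3 1 the log2 fold changes were 0.34 for DUSP5 and −0.51 for DUSP10. Without Rg3 2 they were 1.10 for DUSP5 and −1.01 for DUSP10. DUSP4 was high in Rg3 1 alone, with a log2 fold change of 0.59. It was −0.062 without Rg3 1 and 1.02 without Rg3 2.

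Upstream of AP-1, the kinase genes MAPK8 and MAPK9 (JNK) and RPS6KA3 (RSK2) had log2 fold changes of 0.16, 0.18 and 0.25, and the SRF partner ELK3 had −0.46. Without Rg3 2, those of MAPK8 and RPS6KA3 were 0.051 and 0.16, and without Rg3 1 that of MAPK8 was 0.26. The AP-1 partners with the smallest p were NRL (log2 fold change 0.81), CREM (0.31), MAFK (0.22) and ATF3 (0.21). CREM was at 0.19 without Rg3 2 and 0.20 without control 1. MAFK was at −0.11 without Rg3 1 and 0.49 without Rg3 2. Among the AP-1 targets with the smallest p, 3 are given, each with a mean that lay lower with Rg3. TIMP1, a metalloproteinase inhibitor, was at 38.3 and 28.5 CPM with Rg3 and 40.8 and 48.2 CPM in controls (log2 fold change −0.41). PLAU, the urokinase, and PLAUR, its receptor, had log2 fold changes of −0.49 and −0.25. For these 3 genes both Rg3 libraries lay below both controls, as for 17% of all genes, and each edgeR adjusted p was 0.999. The gap was slight for PLAUR, with 22.96 CPM in Rg3 2 against 23.02 CPM in control 1. TIMP1 was at −0.64 without Rg3 1 and −0.21 without Rg3 2. PLAUR was at −0.070 without control 2 and −0.39 without control 1. MMP3 and MMP10 had no count in any library, and MMP1, MMP9 and MMP13 had at most 4.

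**Figure D4:**
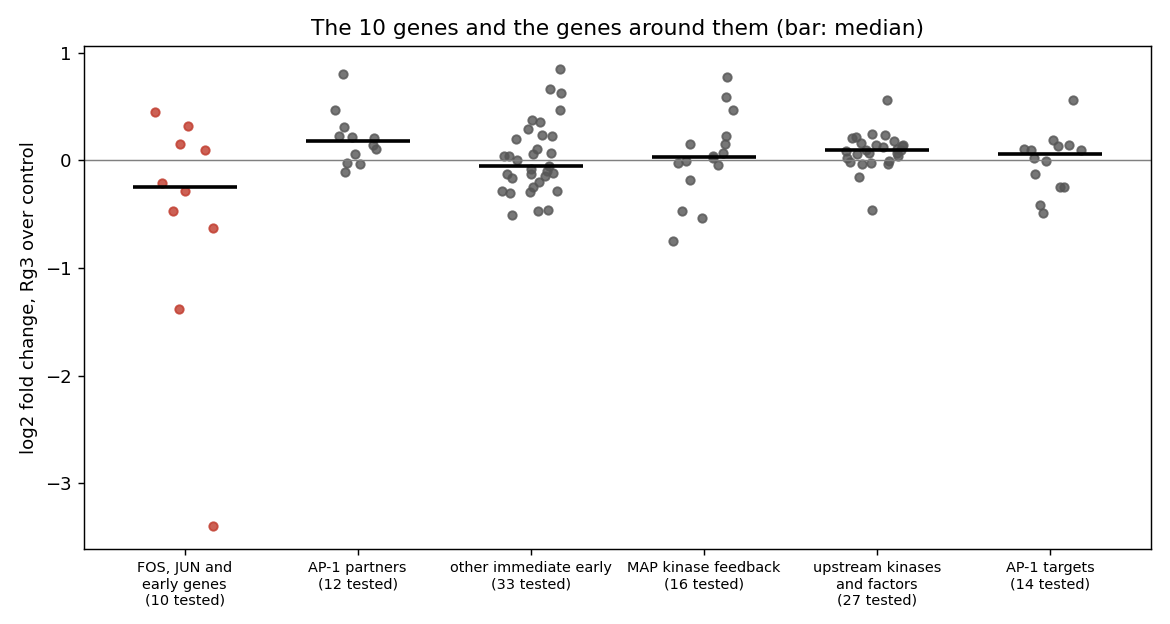
Log2 fold change, Rg3 over control (y axis), of the 10 genes (red) and of the tested genes of 5 lists around AP-1 (grey), with a bar at the median. FOSB and EGR1 lie furthest below 0, at −3.40 and −1.38, and the medians of the 5 lists lie between −0.05 and 0.18.

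In these lists 3 of the 99 tested genes, SPRY2, NR4A2 and KLF6, were more than 2-fold higher in control 2 than in control 1, against 1.17% of all genes. SPRY2, an inhibitor of receptor kinase signalling, was at 0.909 and 0.415 CPM with Rg3 and 0.203 and 1.17 CPM in controls 1 and 2. NR4A2 had 7 and 11 counts with Rg3 and 0 and 11 in controls 1 and 2, so control 1 was the low library there. KLF6 was at 4.55 and 3.90 CPM with Rg3 and 2.64 and 5.75 CPM in controls 1 and 2. EGR2, EGR3 and EGR4, too low to test, had 1, 5 and 2 counts in control 2 and 0 in each other library. ARC and KLF2, the other early genes too low to test, did not share this pattern. ARC had 4 and 0 counts with Rg3 and 1 and 2 in controls 1 and 2. KLF2 had 1 and 4 counts with Rg3 and 0 and 1 in controls 1 and 2.

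The genes most like FOS and JUN over the 4 libraries were found by the Euclidean distance between deviations of log2 CPM from the gene's own mean, among 14116 genes with a mean of at least 1 CPM. Nearest to FOS were C11orf53 (distance 0.07), ARRDC4 (0.07), LOC440354 (0.10), HNRNPA1P35 (0.11) and FAM182B (0.12). ARRDC4, for example, was at 4.16 and 4.24 CPM with Rg3 and at 3.78 and 6.89 CPM in controls, with control 2 high as for FOS. Nearest to JUN were SNORD4B (0.06), ZNF395 (0.07), ZNF821 (0.07), ABHD8 (0.07) and SNORD62A (0.08), each lowest in Rg3 2. With 4 libraries many genes share any one pattern, so these names describe likeness only.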

How the data were processed

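Raw counts per gene symbol, which the authors had not normalised, were deposited as 1 table with a column per library, named by sample title. The genome build was GRCh37, per the submitters' processing notes. The aligner, counting tool, annotation and strand setting are not given in the sources used here. The analysis used edgeR 4.0.16 in R 4.3.3. filterByExpr (minimum count 10, minimum total 15) left 16323 genes, libraries were scaled by TMM, and treatment was the only term (2 residual degrees of freedom). P-values were adjusted by Benjamini-Hochberg over all tested genes and the threshold was 0.05. Standard errors were derived from the F statistic. CPM are counts per 1000000 after TMM. In counts simulated for this comparison over 16323 genes, the test recovered 8.66% of 1.5-fold, 62.1% of 2-fold and 99.1% of 4-fold changes. It also called 63 of 79206 unchanged genes, beside 29, 208 and 327 genes changed 1.5-fold, 2-fold and 4-fold. The changed genes were drawn from the better-counted genes only, so recovery at low counts was not measured. DESeq2 1.42.0, limma voom 3.58.1, other scalings, no filter, a replicate block and leaving out each library were alternatives. The members and lists were chosen with earlier results of these data known. Named list genes were the 4 with the smallest p per list, as none was called, plus the 5 nearest to FOS and to JUN. A gene that this rule takes is not reported here, though it stayed in every test and count. Genes named for control 2, and SPRY2, NR4A2, KLF6, EGR2, EGR3, EGR4, ARC, KLF2, MAPK7, SOCS3 and the MMP genes, were chosen after their values were seen.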

Additional observations from a re-analysis of the deposited data

How the results depend on the processing

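Other scalings (size factors of the RLE kind, library totals) and limma voom changed no call and no direction of a member. All-gene calls, 5 higher and 0 lower in the main edgeR fit, were 90 and 124 without a low-count filter, 39 and 18 with DESeq2, and 69 and 86 with the replicate block. Leaving out 1 library gave 31 to 428 higher and 18 to 456 lower. Member calls stayed at 0 higher in every fit. Member calls lower were 2 without the filter (FOSB −3.39, FOSL2 −0.62), 1 with the replicate block (FOSL2 −0.63, edgeR adjusted p = 0.0181) and 0 to 2 with 1 library left out. Companion list genes called higher were 2 without the filter, 2 with the replicate block (NR4A3 and SOCS3 in both) and 0 to 4 with 1 library left out, and 0 to 2 were called lower there. With 1 library left out, log2 fold changes ran from −0.61 to 0.16 for FOS, −5.49 to 1.15 for FOSB, −0.53 to 0.049 for FOSL1, −0.73 to −0.52 for FOSL2, −0.81 to −0.21 for JUN, −0.30 to 0.50 for JUNB, −0.16 to 0.32 for JUND, −2.16 to 0.59 for EGR1, −0.019 to 0.59 for IER2 and −0.11 to 0.84 for IER3. Those of MAFK ran from −0.11 to 0.49 and of DUSP4 from −0.062 to 1.02. The cause of these shifts was not tested. A group left with 1 library is assumed to vary like the other. Same-numbered libraries deviated together across genes at r = 0.15, and with 2 pairs the numbers are not shown to pair the samples. At 2 to 23 counts in the lower libraries, FOSB and EGR1 are limited by depth.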

Other observations

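Beyond STAR and HBB, the genes counted at least 10 times in control 2 and not at all in the other libraries included SRPX with 47 counts, HSD11B1, which regenerates cortisol, with 44, the collagen gene COL6A3 with 40, and S100A9, a myeloid calcium-binding protein, with 17. These genes were named after their values were seen, and 134 genes had at least 3 counts in control 2 alone, against 70 in Rg3 1, 43 in Rg3 2 and 40 in control 1.

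MAPK7, the ERK5 kinase gene, varied widely within both groups, at 100.8 and 292.5 CPM with Rg3 and 227.1 and 40.0 CPM in controls 1 and 2. SOCS3, a cytokine feedback inhibitor, was at 38.8 and 20.7 CPM with Rg3 and 26.0 and 11.7 CPM in controls 1 and 2, with a log2 fold change of 0.66 (SE 0.40, edgeR adjusted p = 0.999). For both genes the groups overlapped. SOCS3 was called higher with edgeR without a low-count filter, in a fit that called 90 of 25668 genes higher.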
